A study of Mus musculus with 9 samples.

Results

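The TCP1 ring complex (TRiC, also called CCT) is built from the products of 8 genes, Tcp1 and Cct2, Cct3, Cct4, Cct5, Cct6a, Cct7 and Cct8. They were taken from the count table by symbol through their Ensembl gene identifiers, and all 8 were found among its 20189 genes. The cells were E14, a mouse embryonic stem (ES) cell line, here labelled wild type and grown in serum with leukemia inhibitory factor (LIF). They were starved for 3 h of the amino acids (AAs) Thr (3 libraries) or Cys (3 libraries), and 3 libraries were labelled unstarved. Whether the unstarved cells were kept for the same time in the same medium with all AAs is not certain. The protocol text that all samples share gives a starvation medium with dialyzed serum, LIF, β-mercaptoethanol and Lys. It names Arg and Leu as the AAs left out, so that Thr and Cys come from the sample titles. Whether this recipe was the one used without Thr or Cys is therefore not certain. The contrasts ask how each starvation changed the transcript of each subunit, and whether the subunits kept their balance. Nothing in the labels says that replicates were separate cultures, so that p-values measure the spread between these libraries. As all libraries were from bulk RNA, fewer cells with a transcript and less of it per cell cannot be told apart.

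TRiC is the chaperonin of the eukaryotic cytosol: stacked rings, each with 1 copy of every subunit in a fixed order, close over an unfolded protein and hydrolyze ATP. Actin and tubulin need it to fold, as do many proteins with WD40 propellers such as Cdc20 and the Gβ subunits. Prefoldin hands it substrates, and phosducin-like proteins regulate it. Since every ring holds all the subunits, they are needed in equal amounts, and pluripotent cells are known for high levels of the complex.

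The libraries held 48763102 to 74962733 counts, and a subunit had 21147 to 65710 counts in a library, with a common coefficient of variation between replicates of 3.53% over all genes. Of the 28226 count values from 1 to 20, 67.8% were even. Why was not tested, and a count may therefore not stand for 1 separate fragment. All values are CPM (counts relative to the library total) after TMM normalization, with the mean ± SD of 3 libraries, and a gene was called at an adjusted p of 0.05 or less in edgeR's quasi-likelihood test with Benjamini-Hochberg adjustment over 20143 genes. Of 6 markers of pluripotent cells, all were counted, with a summed level of 2910.4 to 2958 CPM in unstarved, 3249 to 3286 in Thr-starved and 2973 to 2992 in Cys-starved libraries. Markers of endoderm (4 of 4 counted) summed to 3.17 to 3.41 CPM in unstarved, 4.63 to 5.43 in Thr-starved and 4.30 to 5.07 in Cys-starved libraries, and those of neural ectoderm (2 of 3 counted) to 15.5 to 16.5, 22.2 to 25.8 and 21 to 21.7 CPM. Mesoderm markers (3 of 4 counted) summed to 4.43 to 5.34 CPM in unstarved, 2.93 to 3.50 in Thr-starved and 4.87 to 5.45 in Cys-starved libraries. Fibroblast markers (3 of 5 counted) summed to 12.8 to 13.1, 8.93 to 9.96 and 11.3 to 13.8 CPM. Both lists were lower in all Thr-starved libraries than in any other library. Sums hide members that moved apart. Without Thr, on the log2 scale, T fell (−1.56) and Kdr rose (0.65), and Thy1 (−1.86) and Col1a1 (−0.39) fell while Col1a2 was not called (0.07). Of the 6 pluripotent markers 4 were called higher, with Klf4 at 0.85 and Sox2 at 0.44. The other 2 were called lower, Nanog (−0.42) and Pou5f1 (−0.17). Mesp1, Neurog2, Postn and Lum of these lists had no value here. The part of other cell types in the results was not tested.

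In unstarved cells the 8 transcripts were all abundant. By mean CPM over all libraries they ranked from 79 (Cct7) to 260 (Cct4) among all genes. Per kilobase of exonic sequence, the level ran from 111 ± 2.28 CPM per kb for Cct3 to 277 ± 1.07 for Cct5, a 2.50-fold range. The order from the highest was Cct5, Cct2, Cct8, Cct6a, Cct7, Cct4, Tcp1 and Cct3, and only Tcp1 and Cct3 had libraries that overlapped. The order depends on the length used. The exonic sequence over all transcripts is far longer than the longest coding transcript for Cct7 (6778 against 2441 bases) and Cct3 (6370 against 1977). Throughout, the longest transcript means the longest coding transcript, and for Cct6a, which has none annotated, the longest of any kind. Per kilobase of the longest transcript, Cct7 (436 ± 8.31) and Cct5 (414 ± 1.59) were highest and Tcp1 (233 ± 3.14) and Cct4 (227 ± 2.67) lowest, a 1.92-fold range in which Tcp1 and Cct4, and Cct3 and Cct2, overlapped.

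**Figure D1:**
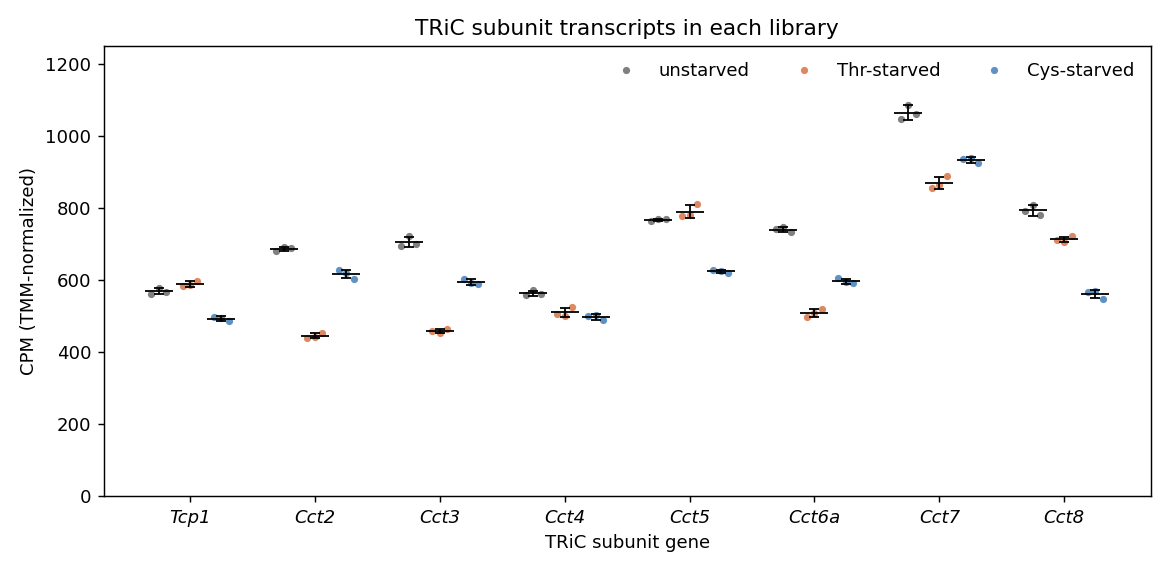
CPM of each TRiC subunit gene (vertical axis, linear from 0) in the 3 unstarved, 3 Thr-starved and 3 Cys-starved libraries, with each library as a point and the mean ± SD as a black bar. Cct2, Cct3 and Cct6a sit far below the unstarved level in the Thr-starved libraries, whereas all 8 genes are lower in the Cys-starved libraries, Cct8 the most.

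Thr starvation lowered the transcripts of 6 of the 8 subunits (31.9% of all genes tested were called lower), but by very unequal amounts. Cct2, Cct3 and Cct6a each lost about the same large share, Cct7 lost less, and Cct4 and Cct8 lost little. Tcp1 and Cct5 were not lower. The median log2 fold change of the 8 was −0.22, beside −0.016 over all genes. Among the 2467 genes at 100 CPM or more, a background chosen after the values were seen, 39.5% were called lower and 45.9% higher.

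Cct2, the β subunit and one of those that bind and hydrolyze ATP strongly, stood at 680.1, 690.5 and 689 CPM in the unstarved libraries and at 440.2, 443 and 454 CPM in the Thr-starved libraries. The groups were far apart, and the gene fell by 35.0% (log2 fold change −0.62, SE 0.020, adjusted p = 1.9e-17). Cct3, the γ subunit, was at 695, 722 and 699 CPM without starvation and at 459, 452 and 465 CPM without Thr. It also fell by 35.0% (−0.62, SE 0.020, adjusted p = 2.8e-17), so that the β and γ transcripts moved side by side. Cct6a, the ζ subunit, which hydrolyzes ATP weakly, went from 742, 746 and 733 CPM to 497, 508 and 519 CPM. Again no library of one group reached the other (33.9% of all genes were apart and lower in this contrast), with a fall of 31.4% (−0.54, SE 0.020, adjusted p = 1.5e-16). In GENCODE M21 Cct6a is annotated as a processed transcript, but its counts are those of an abundant gene.

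Cct7, the η subunit and the most abundant of the 8 by CPM, was at 1048, 1087 and 1059.8 CPM in unstarved and at 857, 863 and 889 CPM in Thr-starved libraries. This is a clear but smaller drop (−0.29, SE 0.019, adjusted p = 3.5e-12). Cct8, the θ subunit, went from 792, 809 and 780.0 CPM to 712, 707 and 722 CPM. The gap between the groups was small and every Thr-starved library lay under every unstarved one (−0.15, SE 0.020, adjusted p = 5.2e-07). Cct4, the δ subunit, behaved like Cct8, with 559, 571 and 560.4 CPM against 505, 501 and 525 CPM (−0.14, SE 0.021, adjusted p = 4.1e-06). The sizes of these smaller changes moved when trends in GC content and exonic length were removed together, and which of the trends moved them was not tested. The values were then −0.10 for Cct7 (the subunit richest in GC, 54.0%), −0.32 for Cct8 (the poorest, 43.3%) and −0.25 for Cct4 (45.1%), all still called. With the length of the longest transcript in its place they were −0.17, −0.33 and −0.26, and those of Cct2, Cct3 and Cct6a stayed within −0.69 to −0.59 under both.

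Tcp1, the α subunit that gave the complex its name, and Cct5, the ε subunit, did not share the loss. Tcp1 stood at 562, 578 and 568 CPM in unstarved and at 583, 586 and 599 CPM in Thr-starved libraries. The groups did not overlap, by a narrow margin (32.6% of all genes were apart and higher). Tcp1 was called higher (0.05, SE 0.020, adjusted p = 0.031), as were 31.1% of all genes. Cct5 was at 764, 769 and 769 CPM without starvation and at 777, 782 and 812 CPM without Thr. These groups did not overlap either, yet the test was not passed (0.04, SE 0.019, adjusted p = 0.052). The calls on these small differences are not firm. Tcp1 lost its call without unstarved replicate 1 (0.05, adjusted p = 0.083), unstarved replicate 3 (0.05, adjusted p = 0.080) or Thr-starved replicate 3 (0.04, adjusted p = 0.12). With trends in GC content and exonic length removed, its value was 0.01 (adjusted p = 0.76), whereas Cct5 was called higher (0.05, adjusted p = 0.016). With the longest transcript in place of the exonic length, Cct5 was not called (0.03, adjusted p = 0.096). Cct5 was also called with RLE normalization, DESeq2, filterByExpr or only the groups compared, and without unstarved replicate 2 (0.05, adjusted p = 0.039), Thr-starved replicate 1 (0.06, adjusted p = 0.022) or Thr-starved replicate 2 (0.05, adjusted p = 0.045), and stood at 0.02 (adjusted p = 0.31) without Thr-starved replicate 3.

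Cys starvation lowered all 8 subunits (18.8% of all genes tested were called lower in this comparison). The median log2 fold change was −0.23, close to that without Thr, beside 0.007 over all genes, but the losses were more even: they spanned 0.35 on the log2 scale, against 0.67 without Thr. Of the genes at 100 CPM or more, 52.6% were called lower and 18.8% higher. The contrasts share the 3 unstarved libraries.

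Cct8 lost the most, with 567, 569 and 547 CPM in the Cys-starved libraries, all far under the unstarved libraries given above (−0.50, SE 0.020, adjusted p = 1.4e-14). Cct6a followed, with 605, 595 and 591 CPM (−0.31, SE 0.020, adjusted p = 3.6e-11). Cct5 was at 627, 626 and 619.5 CPM (−0.30, SE 0.019, adjusted p = 4.1e-11). Thus the ε subunit, at least as high as unstarved in all Thr-starved libraries, was lower in all Cys-starved ones. Cct3 was at 604, 593 and 589 CPM (−0.25, SE 0.020, adjusted p = 2.5e-09). Tcp1 was at 498, 495 and 487 CPM (−0.21, SE 0.020, adjusted p = 2.0e-08). The remaining losses were smaller but every Cys-starved library lay below every unstarved library (23.5% of all genes did). Cct7 was at 935, 939.6 and 925 CPM (−0.19, SE 0.019, adjusted p = 3.5e-08). Cct4 was at 501, 504 and 488 CPM (−0.18, SE 0.021, adjusted p = 6.6e-07). Cct2, lowest of all without Thr, lost the least without Cys, with 627, 619 and 604 CPM (−0.15, SE 0.020, adjusted p = 1.8e-06). All 8 calls held in each of the 18 alternatives. The split of calls over all genes moved with the scaling, from 48.2% higher with TMM to 36.8% with the deposited size factors, under which the median of the 8 was −0.27.

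**Figure D2:**
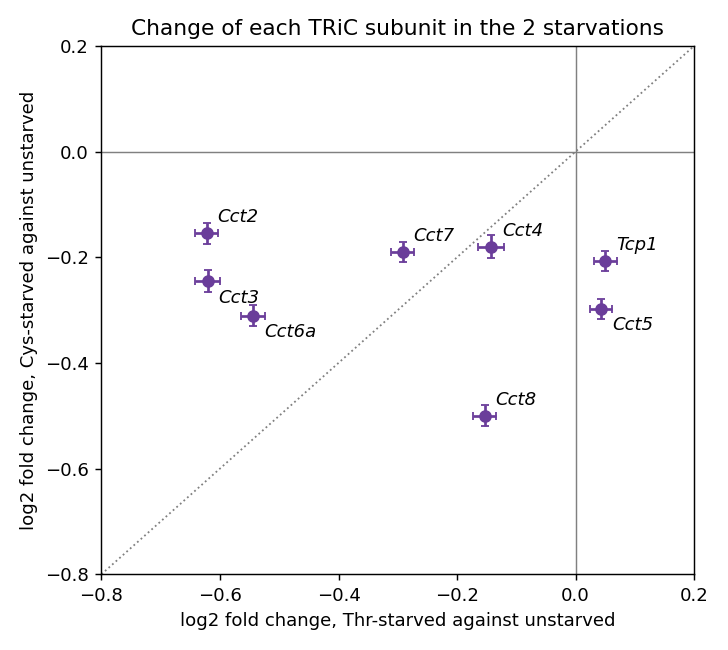
Log2 fold change of each TRiC subunit in the Cys-starved (vertical axis) against the Thr-starved libraries (horizontal axis). Each is relative to the same 3 unstarved libraries, and bars are 1 SE, derived from the F statistic of edgeR. The dotted line marks equal change: Cct2, Cct3, Cct6a and Cct7 lie above it, and Tcp1, Cct5 and Cct8 below it.

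The starvations differed in which subunits they lowered. In the direct contrast, 4 subunits were lower in Thr-starved than in Cys-starved libraries (31.6% of all genes were) and 3 were higher (30.4%). Of the genes at 100 CPM or more, 29.5% were lower and 56.0% higher. Cct2 (−0.47, SE 0.020, adjusted p = 3.5e-15), Cct3 (−0.38, SE 0.020, adjusted p = 2.4e-13) and Cct6a (−0.23, SE 0.020, adjusted p = 5.2e-10) were lower without Thr. Cct8 (0.35, SE 0.020, adjusted p = 7.7e-13), Cct5 (0.34, SE 0.019, adjusted p = 3.8e-13) and Tcp1 (0.26, SE 0.020, adjusted p = 9.2e-11) were higher without Thr than without Cys. Cct4 was nearly level (0.04, SE 0.021, adjusted p = 0.14), and with the deposited size factors it was called higher (0.08, adjusted p = 0.0034), but with trends in GC content and longest transcript length removed it was called lower (−0.05, adjusted p = 0.019). Cct7 was called lower (−0.10, SE 0.019, adjusted p = 5.2e-05), but its sign turned to 0.13 with trends in GC content and exonic length removed and to 0.05 with the length of the longest transcript. The median of the 8 was −0.03, beside −0.018 over all genes.

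Summed over the 8 genes, the TRiC transcripts were lower in all libraries of both starvations. The sum was 5841.7, 5972 and 5858 CPM in unstarved, 4828, 4843 and 4985 CPM in Thr-starved and 4964, 4939.8 and 4851 CPM in Cys-starved libraries. Thus 82.9% of the unstarved sum was left without Thr and 83.5% without Cys, and the starved groups overlapped. This likeness depends on the scaling. As a percent of all counts, without TMM, the sum was 0.583 ± 0.0040 in unstarved, 0.478 ± 0.0091 in Thr-starved and 0.509 ± 0.0066 in Cys-starved libraries. By this measure 81.9% was left without Thr and 87.3% without Cys, and the starved groups were apart.

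The balance among the subunits was measured within each library, as the log2 CPM of a subunit minus the mean of the 8, which no scaling of libraries can change, although a correction for GC content and length can. In unstarved libraries Cct2 and Cct5 lay near one another, at −0.07 ± 0.012 and 0.09 ± 0.015. Without Thr they moved to −0.41 ± 0.004 and 0.41 ± 0.010. Hence the ratio of Cct5 to Cct2 counts, which was 1.12, 1.11 and 1.12 in unstarved libraries, was 1.76, 1.76 and 1.79 in Thr-starved and 1.00, 1.01 and 1.03 in Cys-starved libraries. Tcp1, well under Cct3 in unstarved cells, overtook it without Thr. Their ratio averaged 0.807 ± 0.0064 in unstarved, 1.28 ± 0.014 in Thr-starved and 0.829 ± 0.0052 in Cys-starved libraries. Without Cys the shifts were smaller, the largest being those of Cct8, from 0.13 ± 0.015 to −0.10 ± 0.015, and Cct2, from −0.07 to 0.03 ± 0.009. The share of Cct7 overlapped between unstarved (0.56 ± 0.011) and Thr-starved libraries (0.55 ± 0.004), and that of Cct3 between unstarved (−0.04 ± 0.013) and Cys-starved libraries (−0.02 ± 0.011). All other shares were apart from the unstarved ones in both starvations. By CPM, 66.5% of all genes were apart from the unstarved libraries without Thr and 46.4% without Cys. No such background was taken for the shares. Some of the shifts without Thr rested on the fit used. The gain in share was 0.13 for Cct8 and 0.14 for Cct4 as fitted, but −0.0044 and 0.06 with trends in GC content and exonic length removed, and the change in the share of Cct7 was then 0.21 (0.16 with the longest transcript). The losses of Cct2, Cct3 and Cct6a and the gains of Tcp1 and Cct5 kept their sign under both corrections.

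**Figure D3:**
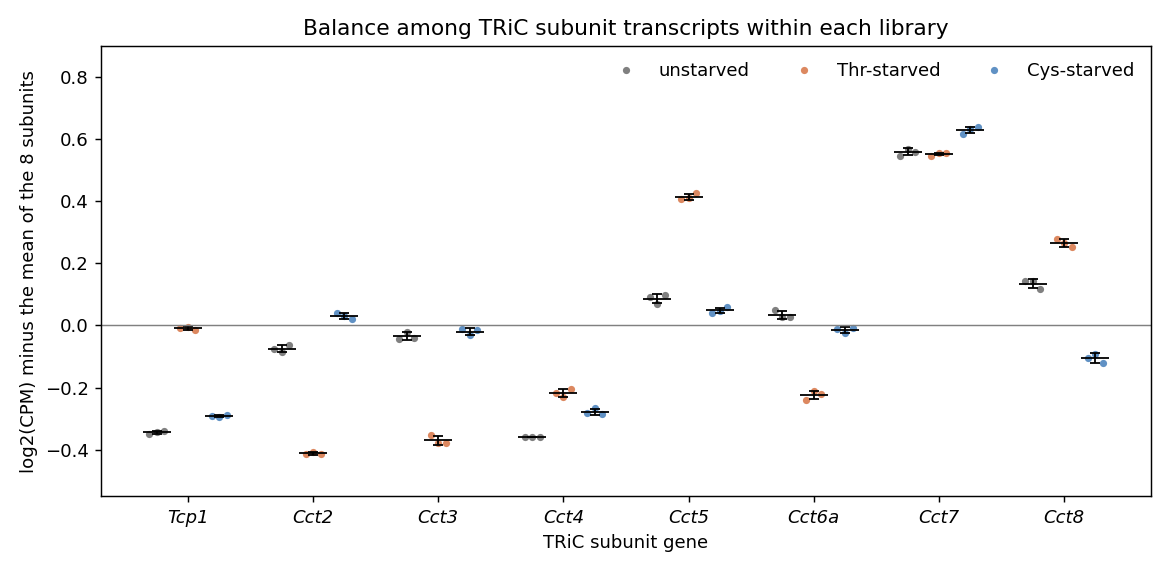
Balance among the 8 TRiC subunit transcripts in each library, as log2 CPM minus the mean of the 8 subunits in the same library (vertical axis), with the mean ± SD as a black bar. Without Thr, Tcp1, Cct4, Cct5 and Cct8 gain share and Cct2, Cct3 and Cct6a lose it (the change of Cct8 was −0.0044 and that of Cct4 0.06 with trends in GC content and exonic length removed), whereas in Cys-starved libraries the largest shifts are those of Cct8 (to −0.10) and Cct2 (to 0.03).

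Pairs of subunits differed in how alike their profiles were, and no background of pairs of other genes was taken. Each profile was the log2 CPM over the 9 libraries relative to the unstarved mean, and likeness was the root mean square (RMS) difference, which describes libraries that share their treatment and has no test. Tcp1 and Cct5 (0.054), Cct2 and Cct3 (0.054) and Cct3 and Cct6a (0.060) were closest, and Cct2 and Cct5 (0.39) farthest apart. The mean profile of the subunits was −0.29 without Thr and −0.26 without Cys. Far more genes outside the complex than subunits were compared with it, so that the nearest gene cannot show which match better. By nearness to it the subunits ranked from 35 (Cct7) to 3143 (Cct2). Of 11410 genes at a mean of 5 CPM or more, 34 lay nearer to the mean profile than the nearest subunit, Cct7 (0.042). The closest were Dse (0.021), an epimerase of dermatan sulfate synthesis, Ints5 (0.023), of the Integrator complex, Slc38a4 (0.025), a transporter of neutral AAs, Sms (0.026), spermine synthase, and Serpinb6a (0.028), a protease inhibitor.

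In the genome the subunit genes lie on separate chromosomes: Tcp1 on chr17:12915701-12925067 (+), Cct2 on chr10:117051001-117063814 (−), Cct3 on chr3:88297116-88321767 (+), Cct4 on chr11:22990519-23003780 (+), Cct5 on chr15:31590800-31601804 (−), Cct6a on chr5:129786998-129846371 (+), Cct7 on chr6:85451514-85468475 (+) and Cct8 on chr16:87483326-87495873 (−), in GRCm38. What they share is company: for 6 of the 8, another gene starts on the opposite strand within 1000 bases (21.6% of all genes tested, and 24.9% of those at 100 CPM or more). The neighbours moved in various ways, with or against their subunit. Psph, the last enzyme of serine synthesis, which starts inside Cct6a, was at 44.9 ± 0.654 CPM unstarved and rose without Cys to 67.3 ± 1.59 CPM (0.58, adjusted p = 1.8e-11) while Cct6a fell. Pradc1, which starts within Cct7, rose without Thr (0.32, adjusted p = 9.4e-05). Mrpl18, a protein of the mitochondrial ribosome that starts within Tcp1, was at 0.22 without Thr (adjusted p = 9.7e-06) and −0.32 without Cys (adjusted p = 2.3e-07), beside 0.05, a call that was not firm, and −0.21 for Tcp1. Usp16, a ubiquitin protease whose end overlaps that of Cct8, stood at −0.41 without Thr (adjusted p = 2.3e-09) and 0.16 without Cys (adjusted p = 0.0017), against −0.15 and −0.50 for Cct8.

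Reads on shared sequence limit some of these values. The library kit keeps strand, but how strand was counted is not given in the sources used here. Tcp1 shares 571 exonic bases (11.4% of its exonic length) with Acat3 and 141 with Mrpl18, Cct6a shares 452 (12.5%) with Psph, Cct7 shares 214 with Pradc1 and Cct8 shares 192 with Usp16, all on the opposite strand. Tcp1 also matches Acat2, which had up to 130.1 CPM, over 445 bases at 98.7% identity, and Cct7 the pseudogene Gm5380 over 209 bases at 97.1%, which had at most 0.356 CPM. The part of these overlaps in the results was not tested.

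Promoters are shown because subunits of 1 complex moved apart. RefSeq windows on GRCm38.p6, from 250 bases before to 50 after the start site, matched 7 of the 8 genes. Their start site lay 628 bases from the GENCODE start for Tcp1 and 358 for Cct6a, beside at most 42 for the others. The Tcp1 and Cct6a windows lie within the annotated genes. Exons of Mrpl18 cover 267 bases of the first, and exons of both Cct6a and Psph all 300 of the second. Exons of Fam173b cover 245 bases of the Cct5 window. Whether matches there lie in a promoter was not tested. A GC box (GGGCGG on either strand, bound by Sp1) was in 7 of 7, beside 35.9% of 32544 windows, and a CCAAT box (CCAAT on either strand, bound by NF-Y) was in 4 (Tcp1, Cct3, Cct6a and Cct7), beside 37.4%. The ETS motif CCGGAAGT was in Tcp1 and Cct8, beside 3.92% of windows. A heat shock element of 2 units (GAANNTTC or TTCNNGAA) was in Cct5 and Cct6a, beside 15.1%, and the palindromic NRF1 motif in Cct5, beside 0.974%. The CRE core TGACGT was in Cct6a, beside 7.55%. No window of the 7 held a heat shock element with a further unit in the same spacing (0.608%), the E-box CACGTG (7.17%) or the CARE of C/EBP and ATF proteins (TGATGNAAN, 3.90%). A match is a description of letters in the window. The lines below give the bases before the start site that no annotated exon covers, with GC boxes, CCAAT boxes and the ETS motif on either strand in capitals, for the β and γ subunits that fell together without Thr, for η, and for θ, which fell most without Cys. They read 5′ to 3′ on the strand of the gene.
Cct2, chr10:117063853-117064102 (−): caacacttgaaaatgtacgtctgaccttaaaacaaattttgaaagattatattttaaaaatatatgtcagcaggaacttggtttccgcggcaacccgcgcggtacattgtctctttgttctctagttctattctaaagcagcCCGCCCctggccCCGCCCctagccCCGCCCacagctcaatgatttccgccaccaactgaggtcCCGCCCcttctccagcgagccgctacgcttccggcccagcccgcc
Cct3, chr3:88297000-88297115 (+): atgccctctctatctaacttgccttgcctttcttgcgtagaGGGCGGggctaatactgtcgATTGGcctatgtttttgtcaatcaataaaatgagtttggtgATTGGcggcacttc
Cct7, chr6:85451284-85451504 (+): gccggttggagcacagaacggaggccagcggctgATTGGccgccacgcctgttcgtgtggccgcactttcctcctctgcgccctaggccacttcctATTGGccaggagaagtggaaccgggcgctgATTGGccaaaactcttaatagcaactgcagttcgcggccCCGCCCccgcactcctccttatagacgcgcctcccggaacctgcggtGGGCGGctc
Cct8, chr16:87495874-87495998 (−): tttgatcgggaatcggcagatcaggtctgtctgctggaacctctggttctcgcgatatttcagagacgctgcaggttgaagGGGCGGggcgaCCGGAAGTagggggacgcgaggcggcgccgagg

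Of the marked motifs, the Cct2 stretch holds only GC boxes, and it lies upstream of a gene with no close neighbour. The Cct3 stretch holds 1 GC box and 2 CCAAT boxes and fills the gap to Tsacc on the other strand. How these letters relate to the changes of the subunits was not tested. Cct8 carries its ETS motif next to its GC box.

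Genes that work with TRiC were described by lists chosen by function, in the same fits. Their counts stand beside 31.1% of all genes higher and 31.9% lower without Thr, and 17.5% higher and 18.8% lower without Cys, or 45.9%, 39.5%, 18.8% and 52.6% of the genes at 100 CPM or more. The prefoldin subunits, which pass unfolded actin and tubulin to TRiC, split without Thr: Pfdn4 (0.32, adjusted p = 5.0e-07) and Vbp1 (0.16, adjusted p = 7.1e-05) rose, Pfdn2 (−0.41, adjusted p = 2.2e-11) and Pfdn6 (−0.16, adjusted p = 9.3e-05) fell, and 2 of 6 were not called. With GC and exonic length trends removed, only 1 was called higher. Without Cys 5 of 6 fell, by −0.18 to −0.13 on the log2 scale. Among 5 cochaperones, mainly phosducin-like proteins, Pdcl rose without Thr (0.46, adjusted p = 1.8e-09) and fell without Cys (−0.22, adjusted p = 2.4e-04). Pdcl3 fell in both (−0.30, adjusted p = 1.4e-07, and −0.20, adjusted p = 1.1e-04). Txndc9 was level without Thr (0.00, adjusted p = 0.92) and fell without Cys (−0.42, adjusted p = 5.1e-09), and in all 4 of 5 fell without Cys. The list medians were 0.03 and −0.14 for prefoldin and −0.07 and −0.22 for the cochaperones, beside −0.016 and 0.007 over all genes.

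Of 8 genes of the prefoldin-like URI1 and R2TP assembly complexes, 3 rose and 3 fell without Thr, with Pdrg1 at 0.78 (adjusted p = 4.0e-13) and the ATPase Ruvbl1 at −0.37 (adjusted p = 6.0e-12), counts near the shares of all genes. Without Cys 2 of 8 fell, also near the share of all genes, Ruvbl1 (−0.22, adjusted p = 2.0e-07) and Uri1 (−0.13, adjusted p = 5.3e-04). The chaperonin of mitochondria fell in both starvations. Hspd1 (HSP60), which forms its ring, went from 1469 ± 12.5 to 518 ± 4.02 CPM without Thr (−1.50, adjusted p = 4.7e-25) and to 1161 ± 9.81 without Cys (−0.34, adjusted p = 2.3e-13), and its lid Hspe1 fell by 0.18 (adjusted p = 1.8e-07) and 0.27 (adjusted p = 1.5e-09) on the log2 scale. Of the 4 chaperonin-like genes counted, Cct6b, the testis paralog of the ζ subunit, was at 0.225 ± 0.0995 CPM unstarved, and Bbs10 rose without Cys (0.43, adjusted p = 5.6e-04). Of 11 genes of HSF1, HSF2 and the Hsp70 and Hsp90 chaperones, 10 fell and 1 rose without Thr. Without Cys 8 fell and 1, Hsf1, rose (0.31, adjusted p = 1.1e-07). Hspa8 was at −1.27 (adjusted p = 4.7e-25) without Thr and −0.34 (adjusted p = 1.6e-14) without Cys. Hsp90aa1 fell less without Thr (−0.10, adjusted p = 4.6e-06) than without Cys (−0.75, adjusted p = 2.1e-19).

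The main clients of TRiC are actins and tubulins. Of 16 genes for them, 13 were called lower and 1 higher without Thr (median −0.58) and 10 lower and 3 higher without Cys (median −0.14). All genes were lower in 31.9% and 18.8%, and genes at 100 CPM or more in 39.5% and 52.6%, respectively. Actb, β-actin, went from 2626 ± 62.8 to 1396 ± 77.6 CPM without Thr (−0.91, adjusted p = 1.1e-17) and to 2216 ± 74.3 without Cys (−0.24, adjusted p = 3.6e-07). Tubb5, the main β-tubulin here, was at −0.65 (adjusted p = 9.5e-19) and −0.29 (adjusted p = 1.7e-11), and Tubb3 fell without Thr (−1.28, adjusted p = 1.5e-20) and rose without Cys (0.29, adjusted p = 7.9e-09). Tube1 (0.48, adjusted p = 5.9e-07), the ε-tubulin of centrioles, was the 1 that rose without Thr, and with GC and length trends removed there were 2. The count of 3 higher without Cys was 1 without unstarved replicate 1. Tubulins are near copies of one another, so that reads may be split between them.

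Of 6 cofactors that take tubulin from TRiC, 3 rose without Thr, Arl2 (0.44, adjusted p = 8.4e-08), Tbce (0.27, adjusted p = 1.4e-04) and Tbcb (0.13, adjusted p = 0.0035), and 5 rose and 1 fell with GC and length trends removed. Without Cys, Tbcc rose (0.55, adjusted p = 4.6e-08) and Tbca fell (−0.13, adjusted p = 0.022), the latter lost without unstarved replicate 3 or Cys-starved replicate 1, and 3 fell with the deposited size factors. Other clients showed no common direction without Thr, with 4 of 13 higher and 6 lower, or 7 higher with GC and length trends removed, beside 31.1% higher and 31.9% lower over all genes and 45.9% and 39.5% over abundant ones. The cell cycle activator Cdc20 rose (0.26, adjusted p = 5.2e-10), cyclin E1 (Ccne1) fell (−0.53, adjusted p = 6.4e-15) and Stat3, the factor downstream of LIF, rose (1.38, adjusted p = 9.7e-21). Of the listed Gβ genes at 5 CPM or more, Gnb4 (−1.06, adjusted p = 1.6e-11) and Gnb2 (−0.15, adjusted p = 2.7e-04) fell. Gnb1 was not called (−0.05, adjusted p = 0.052). Without Cys 6 of 13 fell, above the 18.8% of all genes but near the 52.6% of abundant genes, with Hdac3 at −0.29 (adjusted p = 1.4e-07) and Plk1 at −0.24 (adjusted p = 3.0e-07).

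**Figure D4:**
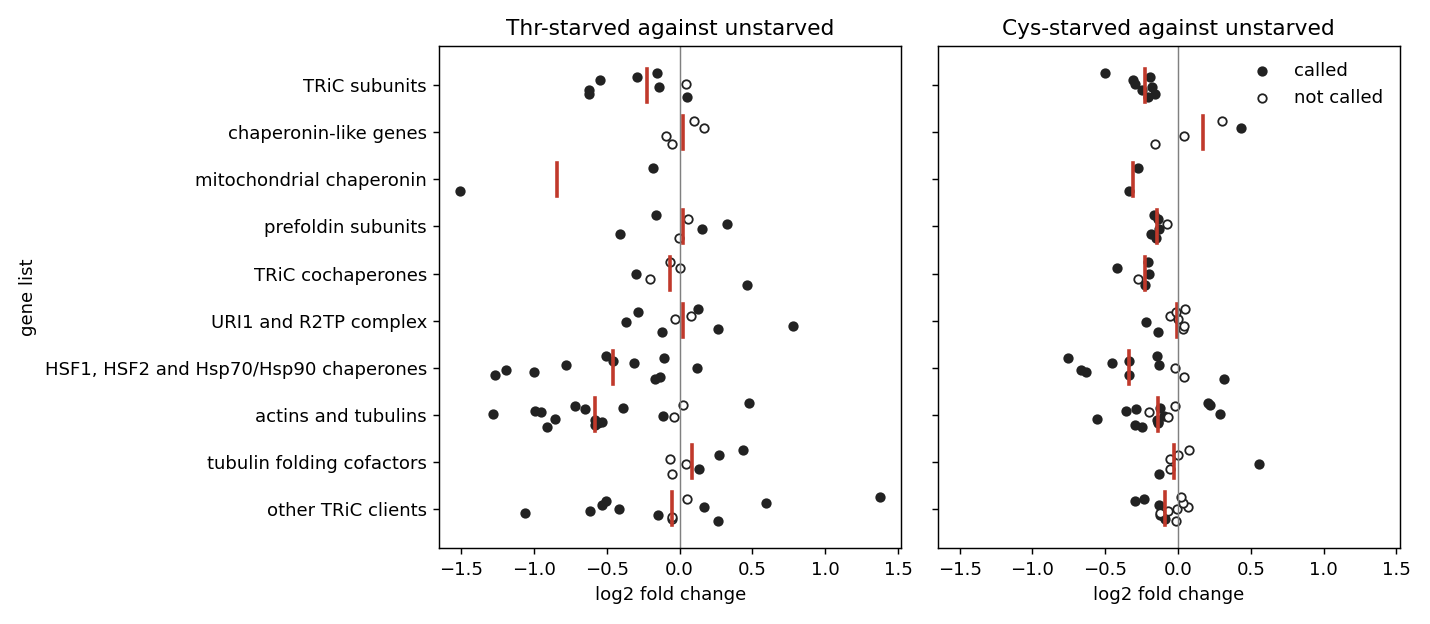
Log2 fold change (horizontal axis) of every gene of the TRiC subunits and of the lists of chaperonin-like genes, partners and clients, in Thr-starved (left) and Cys-starved (right) libraries against unstarved ones. Filled points passed the edgeR test at an adjusted p of 0.05, open points did not, and the red line is the list's median, which for actins and tubulins was −0.58 without Thr and −0.14 without Cys.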

How the data were processed

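RNA-seq of 9 libraries was read from tables of the whole series. The authors mapped the reads to GRCm38 with STAR 2.7.4a and counted them per gene with HTSeq, and the deposited counts are not normalized. The authors also deposited a table of signal values, the same counts divided by a DESeq2 size factor per library, which gave the size factors of an alternative. Genes were named with GENCODE M21 (GRCm38). Depth is given with the report.

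The 8 subunits and the partner lists were chosen with earlier results of these data known, and the neighbouring genes and near copies (BLAST+ 2.17.0) after the values were seen. Groups and replicate numbers came from the sample titles. Counts were fitted in R 4.3.3 with edgeR 4.0.16 (TMM, quasi-likelihood F test, all 9 libraries in 1 model, genes with a count of at least 1, Benjamini-Hochberg over all genes, called at 0.05). Each SE was derived as the absolute log2 fold change divided by the square root of the F statistic. The script was tested on simulated data. All 8 subunits are named, with their nearest genes by profile and partner genes at a mean of 5 CPM or more as examples, besides Cct6b, a paralog named after its value was seen.

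Alternatives were RLE normalization, the deposited size factors, DESeq2 1.42.0, filterByExpr, only the groups compared, the replicate number as a block, trends in GC content and exonic length removed (loess, span 0.3), an adjusted p of 0.01 and each library left out. The same trends with the length of the longest transcript were added after seeing the data. This was the longest coding transcript, or the longest of any kind for genes with no coding transcript.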

Additional observations from a re-analysis of the deposited data

Results flagged for a closer look

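For 7 of the 8 subunits, the effects of the starvations differed from one another by the direct edgeR test of Thr-starved against Cys-starved libraries (3 libraries each, Benjamini-Hochberg over all genes). On the log2 scale the difference was 0.26 for Tcp1, −0.47 for Cct2, −0.38 for Cct3, 0.34 for Cct5, −0.23 for Cct6a, −0.10 for Cct7 and 0.35 for Cct8. Of all genes, 62.0% passed the same test, as did 85.5% of the 2467 genes at 100 CPM or more, so that 7 of 8 is near the share of genes of like abundance. The sign for Cct7 turned with GC content and length trends removed.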

How the results depend on the processing

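The count of 6 subunits lower without Thr and of 8 lower without Cys was the same in all 18 alternatives. The 1 subunit called higher without Thr became 2 with RLE normalization, DESeq2, filterByExpr or only the groups compared, 0 at an adjusted p of 0.01 and 0 with trends in GC content and longest transcript length removed (Tcp1 then −0.0056), was Cct5 in place of Tcp1 with GC content and exonic length trends removed, and ranged from 0 to 2 with 1 library left out. The median without Thr was −0.28 with GC content and exonic length trends removed and −0.29 with the longest transcript, and without Cys −0.27 with the deposited size factors and −0.26 with GC content and exonic length trends removed. Between the starvations the median turned to 0.012 with the deposited size factors and 0.049 with GC content and exonic length trends removed, Cct4 to −0.035 and Cct7 to 0.13 with the latter, and Cct4 to −0.054 (called lower, adjusted p = 0.019) and Cct7 to 0.047 with the longest transcript. In these cases the cause was not tested. The replicate number as a block left 0 subunits higher without Thr (Tcp1 adjusted p = 0.051) and changed no other call among the 8 subunits. Deviations of same-numbered libraries correlated at −0.24 to 0.11, so that the numbers were not taken as a pairing. The depth limits none of the 8 subunits, but Cct6b, Gm5380 and the markers near 0 rest on few counts.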

Other observations

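In the ring the subunits are known to stand in the order Cct2, Cct4, Tcp1, Cct3, Cct6a, Cct8, Cct7 and Cct5, with Cct5 next to Cct2. Read along this order, chosen after the values were seen, the log2 fold changes without Thr were −0.62, −0.14, 0.05, −0.62, −0.54, −0.15, −0.29 and 0.04, and those without Cys −0.15, −0.18, −0.21, −0.25, −0.31, −0.50, −0.19 and −0.30. The mean difference between the 8 pairs of neighbours was 0.37 without Thr, beside 0.32 for the other 20 pairs, and 0.11 beside 0.13 without Cys. No test was run on this order.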
